A study of Mus musculus with 20 samples.

Results

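The 7 genes described here encode matricellular proteins, which are secreted into the extracellular matrix and act on cells more than they bear load themselves. They are Ccn1 (Cyr61 in the files), Ccn2 (Ctgf in the files), Thbs1, Tnc, Postn, Spp1 and Sparc, and every probe that carries 1 of these names was taken. They are 7 of 27670 named genes on the array, and they had 12 probes on 21 spots, of 41174 probes on 43379 spots in all: 1 probe each for Ccn1, Ccn2, Postn and Spp1, 2 for Sparc, and 3 each for Thbs1 and Tnc. Spp1 has 1 probe spotted 10 times. All 12 probes passed the filter on dim probes, none was saturated or marked as uneven, and 11 of the 12 were well above background on all 20 arrays.

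Male ICR mice aged 6 months were suspended by the tail for 24 h at a head-down tilt of 45°, so that the hind limbs bore no weight (hind-limb suspension, HLS), or moved freely in their cages as controls. Total RNA of HLS soleus, control soleus, HLS gastrocnemius and control gastrocnemius was hybridised to 1-colour Agilent mouse arrays, 5 arrays a group. Both muscles came from each of 10 animals, and HLS and control animals were different mice. The soleus holds posture and has many slow fibres, whereas fast fibres predominate in the larger gastrocnemius.

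Levels are log2 of the processed intensity after division by the array's 75th percentile, so 0 is the level of a spot at that percentile, and a level is compared between samples of 1 probe but not between probes. The percentile stood at an intensity of 385.5 to 736.1, the share of probes well above background was 80.5% to 93.0%, and replicate arrays correlated at 0.969 to 0.990. In control animals Tnni1 and Myh7, genes of slow fibres, were higher in soleus than in gastrocnemius by 3.76 and 1.45 on the log2 scale, and Myh4, a gene of fast fibres, was lower (-2.24), as the muscle labels say. A gene passed the test where limma's p, adjusted by the Benjamini-Hochberg method over 25291 genes, was below 0.05, and differences are given ± SE. The number of arrays limits the precision.

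Matricellular genes are known as early responders to stretch. Tension on a cell brings the coactivators YAP and MRTF into the nucleus, where they work with TEAD factors and SRF on promoters that include those of Ccn1 and Ccn2. Thrombospondin 1 can release TGF-beta from its latent form, and TGF-beta in turn induces Ccn2 and Postn. In muscle, tenascin C is concentrated where fibres meet tendon, and periostin, osteopontin and SPARC are made largely by fibroblasts, macrophages and satellite cells. In whole muscle, fewer cells of a type and less RNA per cell cannot be told apart.

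The RefSeq table (GRCm38.p6) held a promoter for 5 of the 7 genes, Ccn1, Tnc, Postn, Spp1 and Sparc, in 8 windows. The 250 bases before the start are printed for the 3 of these genes that fell in HLS soleus. For Tnc and Postn, each with 2 starts in the table, the start farthest downstream is shown. Capitals mark the letters searched for, on both strands: GGAATG or its reverse complement CATTCC, which TEAD factors bind, and TATAAA or its reverse complement TTTATA, the TATA box.
Ccn1, chr3:145649986-145650235, minus strand: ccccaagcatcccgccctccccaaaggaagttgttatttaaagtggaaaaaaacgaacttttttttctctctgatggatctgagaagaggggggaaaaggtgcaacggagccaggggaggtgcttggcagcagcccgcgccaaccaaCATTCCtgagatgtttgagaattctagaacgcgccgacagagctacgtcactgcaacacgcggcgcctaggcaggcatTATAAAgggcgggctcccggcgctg
Tnc, chr4:64046937-64047186, minus strand: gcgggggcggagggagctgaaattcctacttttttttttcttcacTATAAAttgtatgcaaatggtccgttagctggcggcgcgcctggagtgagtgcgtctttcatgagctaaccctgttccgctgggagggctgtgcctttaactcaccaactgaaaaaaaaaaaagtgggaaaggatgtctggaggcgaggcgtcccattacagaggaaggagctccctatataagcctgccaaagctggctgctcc
Postn, chr3:54360857-54361106, plus strand: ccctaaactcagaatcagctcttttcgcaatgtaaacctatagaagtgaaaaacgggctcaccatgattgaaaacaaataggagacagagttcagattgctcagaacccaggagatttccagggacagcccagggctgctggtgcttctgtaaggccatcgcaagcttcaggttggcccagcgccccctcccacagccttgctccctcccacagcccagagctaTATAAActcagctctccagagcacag

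The TEAD letters stood once in the Ccn1 promoter, with their first base at -103 from the start, and in none of the other 7 windows. They occurred in 12.6% of 32851 promoter windows of the same length, so a match is common. TATAAA stood at -25 in Ccn1, at -26 in the shown Postn window and at -205 in the shown Tnc window, against 12.4% of all windows with it or its reverse complement. The AP-1 motif TGANTCA (6.75% of windows) and the CArG box bound by SRF (1.47%) had no match in the 8 windows. The CArG box can overlap TATAAA, and a match or its lack describes these letters alone.

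Soleus of HLS and control mice was compared to ask what 1 day without load does to these transcripts in a postural muscle. Of the 7 genes, 4 fell (Ccn1, Thbs1, Tnc and Postn), by 0.67 to 1.35 on the log2 scale, and none rose, where 3.53% of all genes tested fell and 2.42% rose. Ccn2 and Spp1 were lower on average by differences of like size but did not pass, and Sparc averaged nearly the same level in both groups. The median difference of the 7 genes was -1.07, against 0.05 over all genes.

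Ccn1 encodes an integrin-binding protein of the CCN family and is an immediate early gene. Its level was 0.28, 0.14, 0.14, 0.27 and -0.11 in HLS soleus, against 1.75, 2.03, 1.41, 1.34 and 0.96 in control soleus. The groups did not overlap, which held for 2.87% of genes in the lower direction. The HLS arrays lay close together (SD 0.16, n = 5), while control arrays spread more widely (SD 0.41, n = 5). Ccn1 fell by 1.35 ± 0.24 (adjusted p = 0.0011), a 2.56-fold lower level and the 62nd largest fall of 25291 genes.

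Ccn2, its close relative, works downstream of TGF-beta and tension and is known for its part in fibrosis. Its level was 2.87, 2.79, 3.11, 4.29 and 4.26 in HLS soleus, against 5.59, 4.63, 3.65, 4.49 and 4.04 in control soleus. The first 3 HLS arrays lay below every control array, and HLS 4 and HLS 5 lay among them. The difference was -1.02 ± 0.41 (adjusted p = 0.18). HLS 4 and HLS 5 were the only soleus arrays of scan day 3. With scan day as a block in the fit the difference was -1.55 (adjusted p = 0.026), and for these 2 arrays scan day and animal cannot be told apart.

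Thbs1 encodes thrombospondin 1, which restrains blood vessel growth through the receptor CD36. On its brightest probe it stood at -0.63, -0.49, -0.85, -0.89 and -0.55 in HLS soleus, against 0.95, 0.97, -0.02, 0.77 and -0.71 in control soleus. Control 5 lay within the HLS range, and the other 4 controls lay above it. The fall was 1.07 ± 0.24 on the log2 scale (adjusted p = 0.0096), or 2.10-fold. It was seen on this probe alone of the gene's 3.

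Tnc encodes tenascin C, which weakens cell adhesion to fibronectin. Its brightest probe stood at -0.19, 0.42, -0.36, 0.09 and -0.32 in HLS soleus, against 0.84, 0.66, 0.42, 0.68 and 0.36 in control soleus. HLS 2 lay between the controls and the other 4 HLS arrays lay below all of them. Tnc fell by 0.67 ± 0.14 (adjusted p = 0.0038), or 1.59-fold.

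Postn encodes periostin, which binds collagen and integrins and aids collagen crosslinking. It stood at 2.26, 3.40, 2.74, 3.15 and 1.68 in HLS soleus, against 3.71, 3.20, 3.72, 3.89 and 4.11 in control soleus. HLS 2 lay above control 2, and the other 4 HLS arrays lay below every control. Postn fell by 1.08 ± 0.24 (adjusted p = 0.0079), or 2.11-fold, and its spread was wider in HLS (SD 0.69, n = 5) than in control soleus (SD 0.34, n = 5).

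Spp1 encodes osteopontin, a cytokine and matrix ligand of integrins and CD44. It stood at -0.83, -1.33, -0.93, -0.86 and -1.18 in HLS soleus, against 1.08, 0.01, -0.09, 0.25 and -0.66 in control soleus. Every HLS array lay below every control array, and control 5 was the closest to them. The difference was -1.14 ± 0.37, or 2.21-fold lower, and it missed the threshold (adjusted p = 0.071). Leaving out 1 array gave -0.90 to -1.34, with an adjusted p of 0.038 to 0.19, and of these 10 fits it passed only without control 5. The 10 spots of the probe differed within an array by an SD of 0.063 to 0.157, against 0.638 between arrays of 1 group.

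Sparc encodes a collagen-binding protein of the matrix, also called osteonectin. Its brighter probe stood at 6.51, 6.48, 6.43, 6.46 and 5.59 in HLS soleus, against 6.29, 5.95, 6.60, 6.40 and 6.34 in control soleus. The groups overlapped, and HLS 5 was the lowest of the 10 arrays, as it was for Postn. The difference was -0.02 ± 0.16 (adjusted p = 0.97), with a 95% interval of -0.35 to 0.30, so a fall of the size of that of Ccn1 lies outside it.

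**Figure D1:**
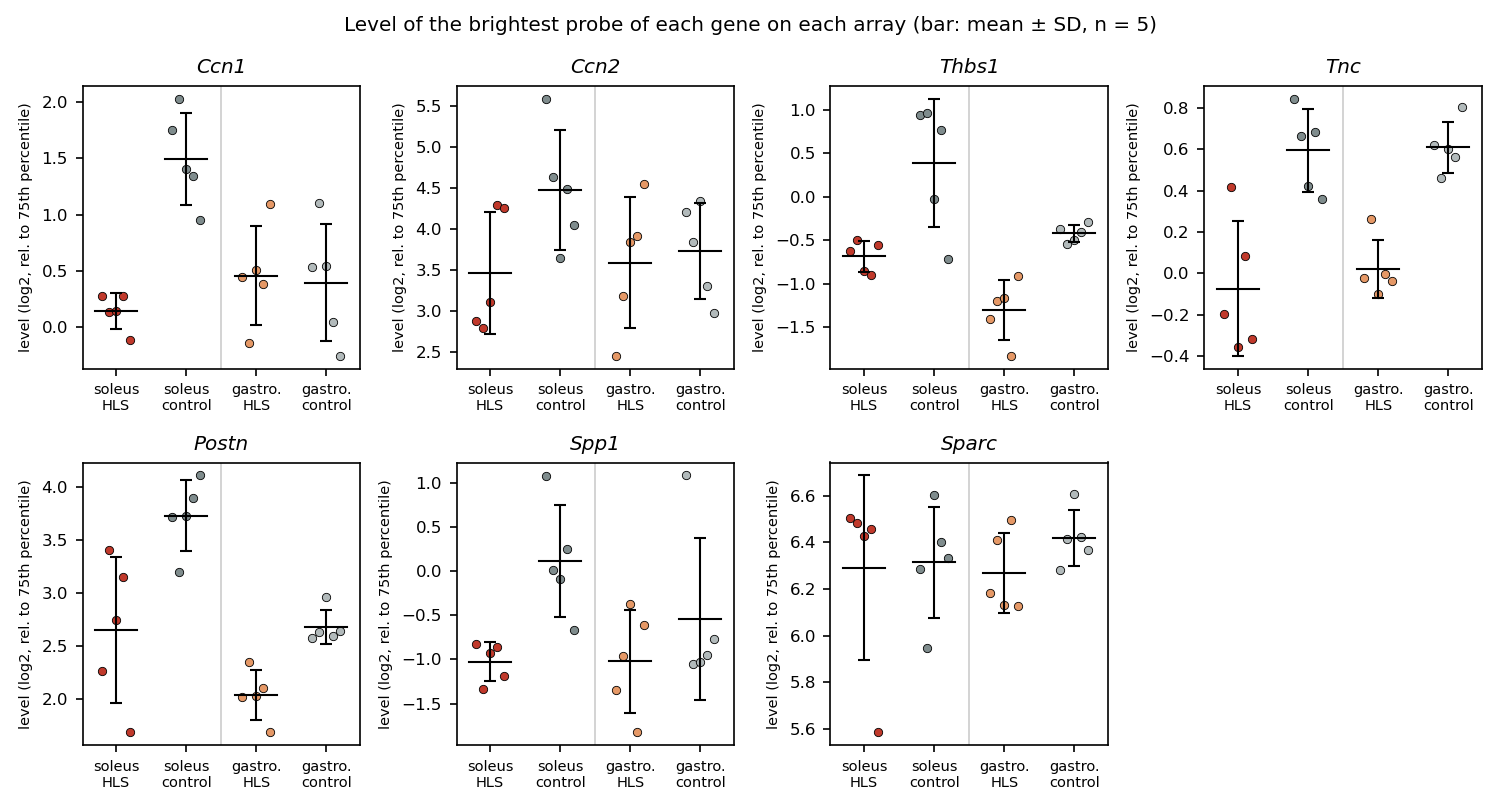
Level of the brightest probe of each of the 7 genes on each array (log2 scale, 75th percentile at 0) in HLS soleus, control soleus, HLS gastrocnemius and control gastrocnemius. Points are arrays in the order of their numbers, bars are mean ± SD (n = 5), and the y axes differ between genes. Ccn1 and Spp1 lie lower on every HLS soleus array than on any control soleus array.

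Slide and scan day were not balanced over the groups. Slide 5 held HLS 1, 2 and 3 and control 5, the only soleus slide with both groups, and scan day 2 held the same 3 HLS arrays and all 5 controls. Within scan day 2 the differences were close to those over all arrays: -1.31 for Ccn1, -1.05 for Thbs1, -0.64 for Tnc, -0.92 for Postn and -1.15 for Spp1. Within slide 5 they were -0.77 for Ccn1, -0.41 for Tnc, -1.31 for Postn and -0.37 for Spp1, and 0.06 for Thbs1. Control 5 was the lowest control for Ccn1, Thbs1, Tnc and Spp1 and the highest for Postn. The slide and this 1 control array cannot be told apart there. With slide as a fixed block none of the 7 passed, as the fit then rests on that 1 control, and 22 of 25291 genes passed. With slide as a random block the same 4 genes passed. With scan day as a fixed block Thbs1 (adjusted p = 0.067) and Postn (adjusted p = 0.095) no longer passed.

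The calls also depended on which arrays shared the estimate of spread. In a limma fit of the 10 soleus arrays alone, Ccn1 and Spp1 passed, with an adjusted p of 0.0018 and 0.029, while Thbs1 (0.067), Tnc (0.0505) and Postn (0.069) missed the threshold. The differences themselves were the same as over 20 arrays.

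**Figure D2:**
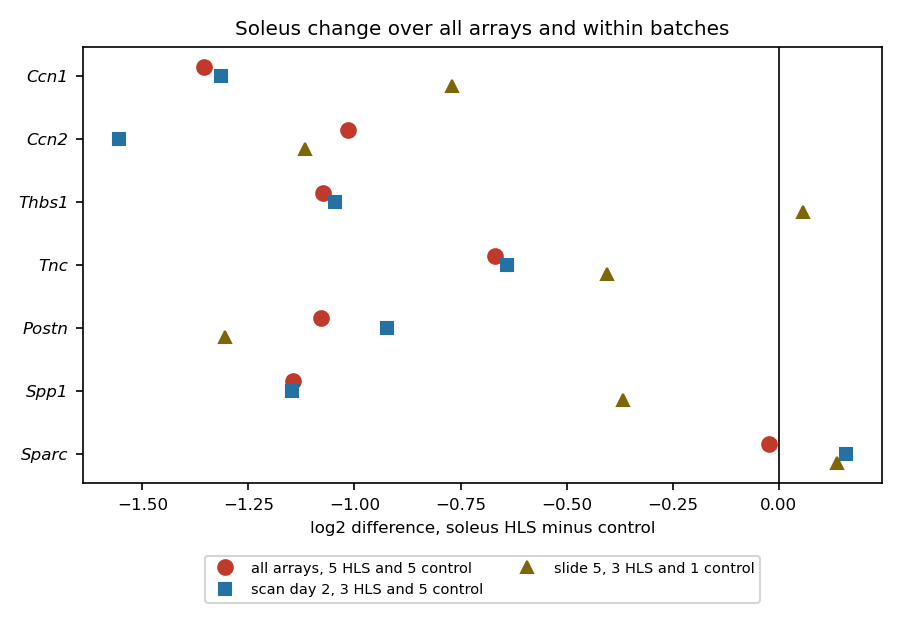
Difference of mean level between HLS and control soleus (log2, x axis) for each of the 7 genes over all arrays, within scan day 2 and within slide 5. Ccn1, Ccn2, Tnc, Postn and Spp1 were below 0 in all 3, while Thbs1 was at 0.06 within slide 5.

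The same comparison in gastrocnemius asks whether a mixed muscle responds alike. Of the 7 genes 1, Tnc, fell, and none rose, where 2% of all genes fell and 1.17% rose. Thbs1 and Postn were lower on every HLS array than on every control array, as Tnc was, but did not pass. That lack of overlap held for 4.47% of genes in the lower direction. The median difference of the 7 genes was -0.48, against 0.01 over all genes.

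Tnc stood at -0.02, 0.26, -0.10, -0.01 and -0.04 in HLS gastrocnemius, against 0.62, 0.46, 0.60, 0.56 and 0.80 in control gastrocnemius. HLS 2 was the closest to the controls and still below them. Tnc fell by 0.59 ± 0.14 (adjusted p = 0.018), or 1.51-fold. The adjusted p was 0.053 without control 5 and 0.052 without HLS 3.

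Thbs1 stood at -1.40, -1.20, -1.16, -1.82 and -0.91 in HLS gastrocnemius, against -0.37, -0.54, -0.50, -0.40 and -0.28 in control gastrocnemius. The difference was -0.88 ± 0.24 (adjusted p = 0.053), which missed the threshold. Postn stood at 2.02, 2.35, 2.02, 2.10 and 1.68 in HLS gastrocnemius, against 2.58, 2.62, 2.96, 2.59 and 2.64 in control gastrocnemius. Its difference was -0.64 ± 0.24 (adjusted p = 0.17). Both genes separated the 5 HLS arrays from the 5 controls. The SD of Thbs1 was 0.34 in HLS gastrocnemius and 0.10 in control gastrocnemius, against 0.18 in HLS soleus and 0.74 in control soleus, and the fit pools the spread over all 4 groups. In a fit of the 10 gastrocnemius arrays alone both passed, with an adjusted p of 0.0075 for Thbs1 and 0.015 for Postn.

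Ccn1 and Ccn2 varied between arrays within each gastrocnemius group. Ccn1 stood at 0.45, -0.14, 0.51, 0.38 and 1.09 in HLS gastrocnemius, against 0.53, 1.10, 0.55, 0.04 and -0.25 in control gastrocnemius. Ccn2 stood at 2.45, 3.18, 3.84, 3.91 and 4.54 in HLS gastrocnemius, against 4.21, 3.84, 4.34, 3.30 and 2.97 in control gastrocnemius. The groups overlapped for both genes. The difference was 0.06 ± 0.24 for Ccn1 (adjusted p = 0.95) and -0.15 ± 0.41 for Ccn2 (adjusted p = 0.93), with 95% intervals of -0.43 to 0.56 and -1.001 to 0.71. For Ccn2, HLS 1 was the lowest of the 10 arrays. It differed from the mean of the controls by -1.28 within scan day 1 and by -1.09 within slide 2. Batch and animal cannot be told apart for this array. With scan day as a block the difference was -1.28 (adjusted p = 0.55), which rests on that 1 HLS array.

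Spp1 stood at -1.34, -0.97, -0.37, -1.82 and -0.61 in HLS gastrocnemius, against 1.09, -1.06, -1.03, -0.95 and -0.76 in control gastrocnemius. Control 1 lay far above the other 4 controls, and these lay within the HLS range. The difference was -0.48 ± 0.37 (adjusted p = 0.63) and -0.07 without control 1. The brighter Sparc probe ranged from 6.13 to 6.495 in HLS gastrocnemius and from 6.28 to 6.61 in control gastrocnemius, with a difference of -0.15 ± 0.16 (adjusted p = 0.75).

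Tnc, Thbs1 and Postn were lower on every HLS gastrocnemius array than on every control. Their order within a batch was thus fixed in advance, and only the size of the differences is described. HLS 1 shared slide 2 with controls 3 to 5, and scan day 1 with all 5 controls, while HLS 2 to 5 were on slide 3 and scan day 2. The 1 HLS array of scan day 1 lay below the mean of the 5 controls by -0.63 for Tnc, -0.99 for Thbs1 and -0.66 for Postn. No spread can be given for 1 array, and with scan day as a block 16 genes of 25291 passed, none of them among the 7.

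**Figure D3:**
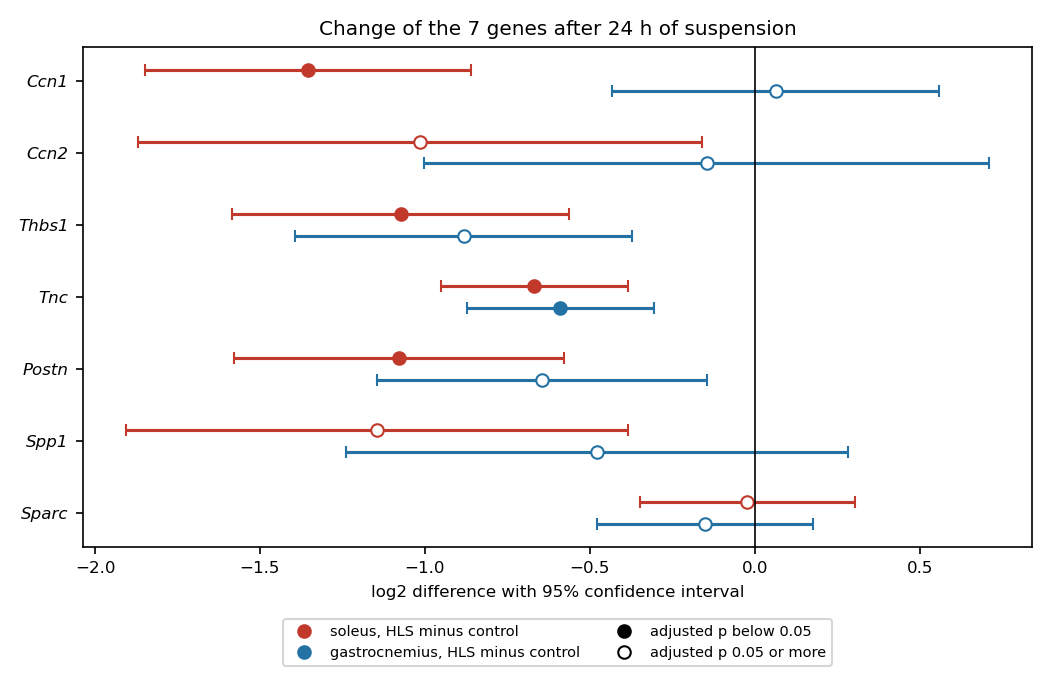
Difference between HLS and control (log2, x axis) with its 95% confidence interval from limma for each of the 7 genes in soleus and in gastrocnemius. Filled points passed the test: 4 genes in soleus and Tnc in gastrocnemius.

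The difference between the responses of the muscles was tested as an interaction, the soleus difference minus that in gastrocnemius. None of the 7 passed by limma (1 had an unadjusted p below 0.05, as 5.76% of genes had), where 2 of 25291 genes (0.00791%) did. These 2 were Dnmt3a and Nlrc3, named after their values were seen. Ccn1 came closest, with a response lower in soleus by -1.42 ± 0.34, an unadjusted p of 0.00041 and an adjusted p of 0.30. Its fall in soleus beside its difference of 0.06 in gastrocnemius is therefore not shown to differ between the muscles at this threshold. For Tnc probe 1, its brightest, the responses were nearly equal, with an interaction of -0.08 ± 0.19 and a 95% interval of -0.48 to 0.32. For Tnc probe 3, close to background, it was -0.49 ± 0.21 in the limma fit over all kept probes (unadjusted p = 0.028, adjusted p = 0.76). The interaction was -0.87 for Ccn2, -0.19 for Thbs1, -0.43 for Postn, -0.67 for Spp1 and 0.13 for Sparc, each with an adjusted p of 0.92 or more. For Ccn2 it was -0.27 with scan day and -0.03 with slide as a fixed block. With animal as a replicate block none of the 25291 genes passed by limma (1458 had an unadjusted p below 0.05), and the adjusted p of Ccn1 was 0.13. With spike-in scaling all 7 genes passed as lower, as did 23479 of all genes, and the median over all genes was then -1.04.

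Soleus and gastrocnemius of control mice were compared to ask where these genes are higher in muscle under normal load. Ccn1, Thbs1 and Postn were higher in soleus, where 12.7% of all genes were higher and 20.9% lower. Postn averaged 3.73 ± 0.34 in control soleus and 2.68 ± 0.16 in control gastrocnemius (SD, n = 5 each), with no overlap (8.26% of genes in the higher direction) and a difference of 1.05 ± 0.24 (adjusted p = 0.0024). Ccn1 averaged 1.50 ± 0.41 in control soleus and 0.39 ± 0.52 in control gastrocnemius (SD, n = 5 each), a difference of 1.10 ± 0.24 (adjusted p = 0.0015), with 1 gastrocnemius array inside the soleus range. Thbs1 differed by 0.81 ± 0.24 on its brightest probe (adjusted p = 0.015), but its direction turned with the probe: it was -0.81 on the dimmest probe and -0.06 for the mean of its probes.

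Ccn2 (0.75, adjusted p = 0.17) and Spp1 (0.66, adjusted p = 0.17) did not pass. With animal as a replicate block, since both muscles came from each mouse, Ccn2 passed (adjusted p = 0.048) and Spp1 did not (0.059), so that 4 genes were higher. Tnc (-0.02) and the brighter Sparc probe (-0.11) lay near 0. Without gastrocnemius control 1, Spp1 passed with a difference of 1.07 (adjusted p = 0.0088), and it did not pass in the other 9 fits that left out 1 array. After suspension none of the 7 passed between the muscles by limma on its brightest probe (2 had an unadjusted p below 0.05, as 41.8% of genes had), where 30.9% of all genes did. In the limma fit over all kept probes, Sparc probe 2 was higher in HLS soleus (0.89, adjusted p = 0.00014). Thbs1 probe 3 (-0.57, adjusted p = 0.0025) and Tnc probe 3, close to background (-0.47, adjusted p = 0.018), were lower there. Thbs1 probe 2 and Tnc probe 2 did not pass. On the brightest probes Postn and Thbs1 came closest, with differences of 0.61 and 0.62 and adjusted p of 0.057 and 0.061. With animal as a replicate block Postn passed (adjusted p = 0.022) and Thbs1 did not (0.063). Control soleus was scanned on day 2 and control gastrocnemius on day 1, on different slides, so muscle and batch are linked only through gastrocnemius HLS 1, and with scan day as a block none of the 7 passed between control muscles. The differences were then 1.09 ± 0.51 for Ccn1, 1.03 ± 0.50 for Postn and 0.68 ± 0.52 for Thbs1, so for these 3 genes the SE grew more than the value moved, while Ccn2 was at -0.67.

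Across the 4 groups, the order of the mean levels differed by gene. Ccn1 averaged 0.14 in HLS soleus, 1.50 in control soleus, 0.46 in HLS gastrocnemius and 0.39 in control gastrocnemius, so control soleus stood above 3 groups whose ranges overlap. Postn averaged 2.65 in HLS soleus, 3.73 in control soleus, 2.03 in HLS gastrocnemius and 2.68 in control gastrocnemius, so HLS soleus stood at the level of control gastrocnemius. Tnc split by condition, with -0.07 in HLS soleus and 0.59 in control soleus, and with 0.02 in HLS gastrocnemius and 0.61 in control gastrocnemius. Thbs1 averaged -0.68 in HLS soleus, 0.39 in control soleus, -1.30 in HLS gastrocnemius and -0.42 in control gastrocnemius, lowest in HLS gastrocnemius and highest in control soleus. Spp1 averaged -1.03 in HLS soleus, 0.12 in control soleus, -1.02 in HLS gastrocnemius and -0.54 in control gastrocnemius, with like means in the HLS muscles. Its SD was 0.22 in HLS soleus, 0.63 in control soleus, 0.58 in HLS gastrocnemius and 0.92 in control gastrocnemius. Ccn2 averaged 3.46 in HLS soleus, 4.48 in control soleus, 3.59 in HLS gastrocnemius and 3.73 in control gastrocnemius, and the ranges of neighbours in its order overlapped.

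Probes of 1 gene did not always move together. In a fit over 37372 kept probes, where 3.18% of probes fell in soleus and 1.72% in gastrocnemius, probe 1 is the brightest. Thbs1 probe 1 fell in soleus, while the soleus differences of probe 2 (-0.14, adjusted p = 0.75) and probe 3 (0.06, adjusted p = 0.88) were small. Between control muscles, where 33.1% of probes passed, Thbs1 probe 3 went against probe 1, with a difference of -0.81 ± 0.13 (adjusted p = 0.00012) for probe 3. Thbs1 probe 1 and probe 3 correlated at -0.39 over the 20 arrays, a description of 2 probes on the same arrays. A result on Thbs1 thus stands for its probe 1.

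Tnc probe 1 fell in both muscles, while Tnc probe 2 had differences of -0.03 in soleus and 0.02 in gastrocnemius. Probe 2 is assigned to another transcript record of Tnc than probes 1 and 3 in the files. Probe 3, close to background, was well above it on 2 of 5 HLS soleus arrays and 5 of 5 control soleus arrays, with a difference of -0.49 (adjusted p = 0.056). It was well above background on 3 of 5 arrays in each gastrocnemius group, with a difference of 0.003 between HLS and control gastrocnemius. The calls on Tnc thus stand for its probe 1. Sparc probe 2 gave -0.10 in soleus and -0.14 in gastrocnemius between HLS and control, near those of probe 1, but was higher in control soleus than in control gastrocnemius by 0.85 ± 0.14 (adjusted p = 0.00016), where probe 1 gave -0.11. A further probe, named A630052E07Rik in the files, an older name of Postn, was not taken by the rule; it lay near background, with means of -3.19 in HLS soleus, -3.35 in control soleus, -4.06 in HLS gastrocnemius and -3.56 in control gastrocnemius.

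**Figure D4:**
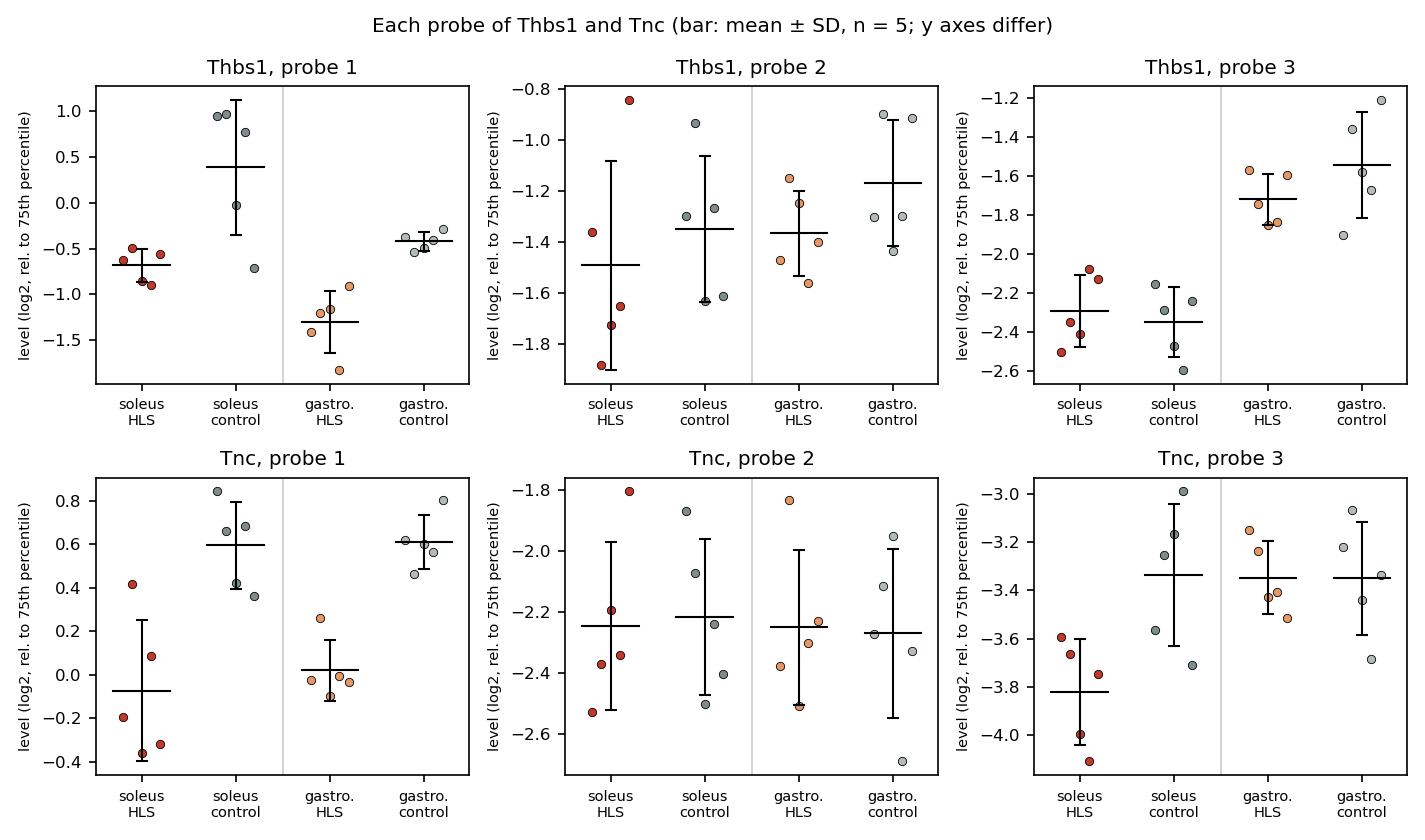
Level of each probe of Thbs1 and Tnc on each array (log2, relative to the 75th percentile) in HLS soleus, control soleus, HLS gastrocnemius and control gastrocnemius, with mean ± SD (n = 5) and a y axis of its own for each probe. The fall after suspension is seen on probe 1 of each gene, and on probe 2 the groups overlap. Tnc probe 3, close to background, was also lower in HLS soleus but did not pass (-0.49, adjusted p = 0.056 by limma).

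Arrays of 1 group were used to see which genes varied together from array to array. Deviations from the 4 group means correlated over the 20 arrays at 0.74 between Postn and Sparc, 0.51 between Thbs1 and Spp1, 0.50 between Tnc and Postn and 0.48 between Ccn1 and Ccn2. HLS soleus 5 was the lowest HLS soleus array for both Postn (1.68) and Sparc probe 1 (5.59). The correlation of Postn and Sparc leans on this array, and its value without it was not computed. Sparc probe 1 and probe 2 correlated at 0.23 by deviation. Postn and Ccn1 were at -0.24 and Ccn2 and Sparc at -0.35, so the 7 genes did not form 1 block. The 20 arrays came from 10 animals. Slide differed within each group and scan day within both HLS groups, so animal and batch cannot be told apart in these deviations. The values share arrays and their scaling, and are descriptions. Among 21449 genes well above background on every array, the deviations most like those of Postn were Rrbp1 (r = 0.91), a gene of the rough endoplasmic reticulum, Mppe1 (0.91) and Fn1 (0.90), which encodes fibronectin. For Sparc they were a probe with no gene name (0.87), Dpysl3 (0.85) and Mtmr11 (0.85).

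The genes nearest to Ccn2 by deviation were Tcim (0.83), Clba1 (0.82) and Fkbp5 (0.80), a cochaperone induced by glucocorticoids. For Ccn1 they were Msantd1 (0.76), Mdga2 (0.75) and H4c6 (0.74), and for Tnc they were Ptn (0.83), which encodes the growth factor pleiotrophin, Sh2d4a (0.80) and Ppfia4 (0.79). By level over the 20 arrays, which includes the group differences, the nearest were Crispld1 for Postn (0.96), Slc25a36 for Thbs1 (0.92), Grtp1 for Tnc (0.91), Apobec2 for Ccn1 (0.86), B4galt4 for Ccn2 (0.83) and Slc20a1, a phosphate transporter gene, for Spp1 (0.83). Id1 (0.82) and Klf4 (0.77) came next for Ccn2, and Col6a1, a collagen VI gene, was second for Sparc (0.81).

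Genes that work with the 7 were counted by list. Over all genes tested, 3.53% fell and 2.42% rose in soleus, and 2% fell and 1.17% rose in gastrocnemius. Of 25291 genes, 4536 in soleus and 3709 in gastrocnemius had an unadjusted p below 0.05 by limma. The median difference over all genes was 0.05 in soleus and 0.01 in gastrocnemius. The lists hold 9 to 25 genes, so 1 call says little about a list. Of 20 related matricellular genes tested, such as other CCN, thrombospondin and tenascin genes, 1 fell in HLS soleus, Fstl1 (-0.76, adjusted p = 0.021), and 1 in HLS gastrocnemius, Tnxb (-0.93, adjusted p = 0.0077), and none rose. Of 22 receptor genes, 3 fell in soleus and 1 in gastrocnemius, and none rose. Itga9, an integrin subunit that binds tenascin C and osteopontin, fell by 0.93 ± 0.20 in soleus and fell by 1.26 ± 0.20 in gastrocnemius (adjusted p = 0.0065 and 0.0011). Itgb6, a subunit of the integrin that releases TGF-beta, fell by 1.17 ± 0.24 in soleus (adjusted p = 0.0037).

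Other targets of YAP and TEAD did not move as 1 group. Of 21 tested, 3 fell and 1 rose in soleus, and 1 fell and 1 rose in gastrocnemius, with a list median of -0.03 and -0.13. Ankrd1, a stretch-responsive gene of the sarcomere, fell by 2.36 ± 0.27 in soleus and fell by 2.23 ± 0.27 in gastrocnemius (adjusted p = 1.6e-05 and 8.0e-05). Gadd45a, a stress-response gene, rose by 2.77 ± 0.26 in soleus and 1.37 ± 0.26 in gastrocnemius (adjusted p = 2.4e-06 and 0.0055). Of 18 genes of the YAP and TEAD pathway itself, 3 fell in soleus and 1 in gastrocnemius; Vgll2, a TEAD cofactor of muscle, fell by 2.22 in soleus and fell by 1.47 in gastrocnemius (adjusted p = 1.2e-05 and 0.0017).

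Of 18 SRF and MRTF genes tested, 5 fell in HLS soleus and 2 in HLS gastrocnemius, and none rose, with list medians of -0.42 and -0.34. Abra, an actin-binding activator of MRTF and SRF in striated muscle, fell by 2.62 ± 0.19 in soleus and fell by 1.41 ± 0.19 in gastrocnemius (adjusted p = 7.1e-08 and 0.00022), and Tagln, a smooth muscle actin-binding gene, fell by 1.20 ± 0.22 in soleus (adjusted p = 0.0020). Of 25 TGF-beta genes, 4 fell in soleus, and none passed in gastrocnemius by limma. There 5 of the 25 had an unadjusted p below 0.05, as 3709 of 25291 genes had. Smad7, the pathway's inhibitor, fell by 0.86 ± 0.15 in soleus (adjusted p = 0.00099). In gastrocnemius Smad7 had a difference of -0.45 (adjusted p = 0.11).

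**Figure D5:**
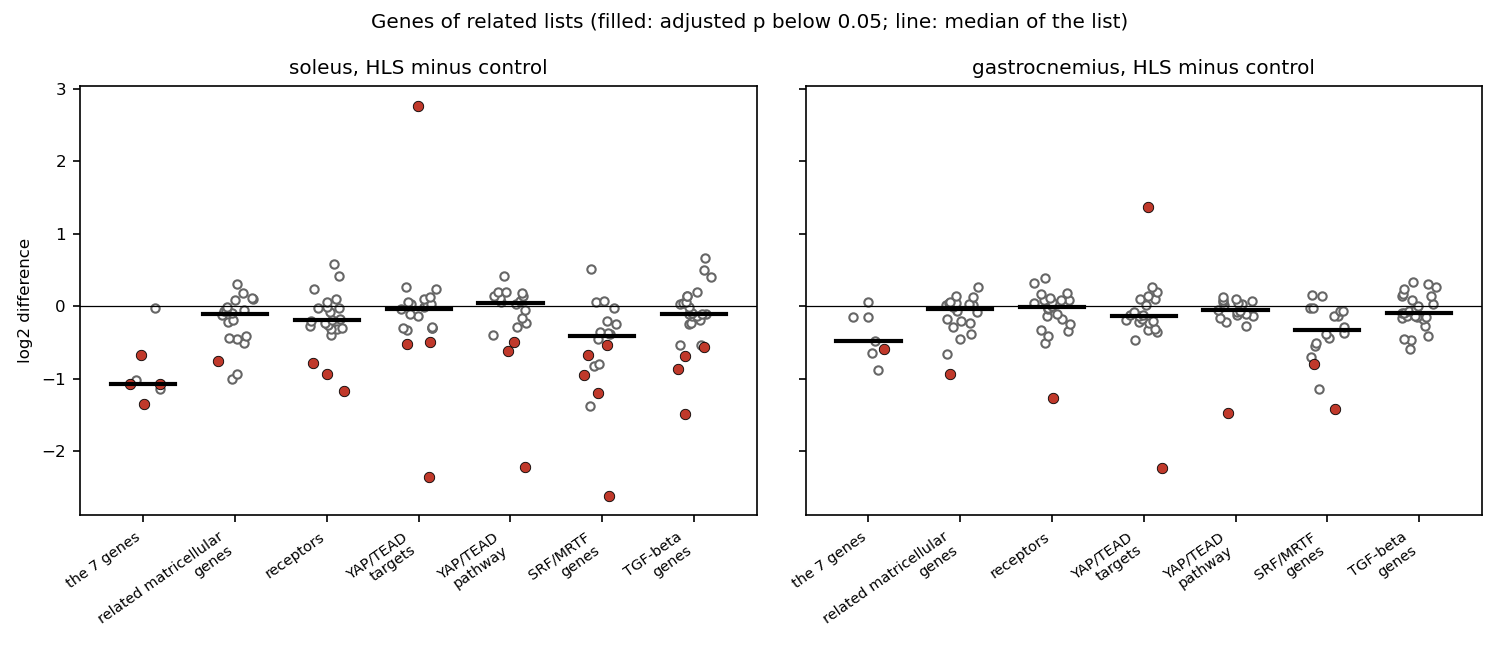
Difference between HLS and control (log2, y axis) of the 7 genes and of each tested gene in 6 related lists, in soleus (left) and gastrocnemius (right); filled points passed the test and lines are list medians. The 7 genes have the lowest median in both muscles, and this was not tested; the genes were chosen with results of these data known.

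Markers of some of the cells that make these proteins were measured beside them, and satellite cells had no list. Over all 25291 genes, 3.53% fell in soleus and 2% in gastrocnemius, with median differences of 0.05 and 0.01. An unadjusted p below 0.05 was seen by limma for 4536 of these genes in soleus and 3709 in gastrocnemius. Of 14 fibroblast markers 2 fell in soleus, Mfap5 (-0.99, adjusted p = 0.0012) and Ly6a (-0.71, adjusted p = 0.024), and none passed in gastrocnemius by limma (3 had an unadjusted p below 0.05), and all 14 were well above background on every array. Their mean level ranged over arrays from 3.54 to 4.14 in HLS soleus and from 3.64 to 4.44 in control soleus. Of 11 tendon markers 1 fell in each muscle, Scx, a transcription factor of tendon cells (-0.78 in soleus and -0.75 in gastrocnemius, adjusted p = 0.0040 and 0.010), with a mean level of 1.65 to 2.70 in HLS soleus and 2.17 to 2.61 in control soleus. None of 14 macrophage markers passed in either muscle by limma (2 had an unadjusted p below 0.05 in soleus, 1 in gastrocnemius), with a mean level of -0.41 to 0.55 in HLS soleus and -0.03 to 0.80 in control soleus.

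Of 12 endothelial markers 1 fell in each muscle, Ptprb in soleus (-0.58) and Kdr in gastrocnemius (-1.12), with list medians of -0.09 and -0.01. In soleus 3 of them were higher and 2 lower at an unadjusted p below 0.05 by limma. Of 12 smooth muscle and pericyte markers 2 fell in soleus and 1 in gastrocnemius, with Cspg4 at -0.60 and -0.40. Of 9 adipocyte markers 1 fell in soleus, Slc36a2 (-0.59), and the list's median there was -0.59, with a mean level of 0.79 to 2.31 in HLS soleus and 1.53 to 2.80 in control soleus. Ngfr, in the nerve and Schwann cell list of 11, rose in both muscles (1.02 and 0.94) and was its only gene to pass. The list's median lay in the other direction, at -0.21 in soleus and -0.23 in gastrocnemius. None of 10 blood and platelet markers passed by limma in either muscle, with no unadjusted p below 0.05. Of 17 fibre genes 1 fell in soleus, Myoz2 (-0.77). The part of any of these cell types in the falls of the 7 genes was not tested.

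The external spike-in RNA added before labelling was not level over the groups. Its mean log2 level relative to the 75th percentile was 1.88 in HLS soleus, 1.61 in control soleus, 1.89 in HLS gastrocnemius and 2.69 in control gastrocnemius. Gastrocnemius HLS 1, the HLS array of scan day 1, stood at 2.14, above the other 4 HLS gastrocnemius arrays. Scaling arrays to the spike-ins moved the median of all genes by -0.26 in the soleus comparison and by 0.80 in the gastrocnemius comparison. The 4 genes that fell in soleus fell under this scaling too, and so did Ccn2 and Spp1. Of all 25291 genes, 3150 then fell in soleus and 169 rose. In gastrocnemius 1 of the 7 genes, Thbs1, had a difference below 0 (-0.08), Ccn1 and Sparc passed as higher, and Tnc stood at 0.21. Of all 25291 genes, 23666 passed as higher there under this scaling and 36 as lower. Directions in gastrocnemius are therefore relative to the other genes on the array.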

How the data were processed

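Soleus and gastrocnemius of 5 HLS and 5 control mice were measured on 20 arrays. Labelling used Cy3 and 600 ng of RNA to which spike-ins were added, per the labels' protocols. The authors deposited scanner files whose spot intensity is linear. Per the file headers, Agilent Feature Extraction (version 9.1.3.1) made it, with background detrending and no scaling between arrays. The deposited series table held the same intensity within 0.497%.

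Spots marked as uneven were dropped, log2 intensity was centred on each array's 75th percentile over non-control spots, spots of 1 probe were averaged, and probes well above background on at least 4 of 5 arrays of 1 group were kept. The brightest kept probe stood for a gene. Symbols came from the RefSeq gene table for 22951 probes by accession, 6659 by current symbol and 3109 by older symbol, and 8455 kept the file's name. A means model of 4 groups was fitted with limma 3.58.1 in R 4.3.3, two-sided, with Benjamini-Hochberg adjustment over 25291 genes, and the procedure was tested on simulated data. Figures used matplotlib 3.10.9.

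The members, lists, tests and alternatives were chosen with earlier results of these data known, and the median of a list is a description. All 7 genes were described. From each list and muscle, up to 2 passing genes at each end were named, or the 1 with the lowest p, and for likeness the 3 genes with the highest Pearson correlation, of which the text gives the leading ones. A gene that this rule chose is not reported here.

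Each number within an arm marks both muscles of 1 mouse, per the labels, so animal as a block was an alternative for the interaction and the muscle comparison; the reported fit has no block. Deviations from group means of both muscles of an animal correlated at -0.448 to 0.233 over 10 animals. HLS and control mice of 1 number are different animals.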

Additional observations from a re-analysis of the deposited data

Results flagged for a closer look

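For each of the 12 probes and each of the 4 groups, the highest and lowest array was compared with the rest, 48 groups of 5 in all, and chance sets about 1 in 20 groups apart. In 4 of the 48, 1 array stood apart from the other 4. HLS gastrocnemius 2 was high for Tnc probe 1, at 0.26, with the others between -0.10 and -0.01. Control gastrocnemius 3 was high for Postn, at 2.96, with the others between 2.58 and 2.64. Control gastrocnemius 1 was high for Spp1, at 1.09, with the others between -1.06 and -0.76. HLS soleus 5 was low for Sparc probe 1, at 5.59, with the others between 6.43 and 6.51, while Sparc probe 2 stood at 6.27 there, with the others between 6.43 and 6.88.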

How the results depend on the processing

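Of the 7 genes, 4 fell in soleus in the reported fit. The number was 2 with the mean of a gene's kept probes, 1 with the dimmest kept probe, 0 with slide as a fixed block and 2 in a fit of the 10 soleus arrays alone, and 4 to 5 when 1 array was left out. In soleus the number was also 3 with scan day as a fixed block, where Ccn2 passed and Thbs1 and Postn did not. It was 5 with normexp and 6 with spike-in scaling. For gastrocnemius, 1 gene (Tnc) fell. The number was 2 with normexp, quantile normalization, median scaling, probes well above background on all arrays and slide as a random block, 3 with the 10 gastrocnemius arrays alone, and 0 with spike-in scaling, the mean or dimmest probe, or slide or scan day as a fixed block; it was 0 to 1 when 1 array was left out. With spike-in scaling 2 of the 7 rose there, and all 7 were lower in the interaction, where that scaling moved the median of all genes by -1.07; no other setting run gave a call on the 7 in the interaction. Between control muscles 3 genes were higher in soleus, 7 with spike-in scaling, 0 with scan day as a block and 3 to 4 without 1 array. Between HLS muscles none was higher, 1 with quantile normalization, all-array detection, slide as a random block or animal as a replicate block, 2 with median scaling or the mean or dimmest probe, and 0 to 1 without 1 array.

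Over all genes, 1506 passed in soleus, against 3319 with spike-in scaling, 921 with the dimmest probe, 22 with slide and 776 with scan day as a fixed block, 705 with 10 arrays alone, and 1059 to 1533 without 1 array. In gastrocnemius 801 passed, against 23702, 458, 10 and 16 under the first 4 of these and 444 to 663 without 1 array (444 without control 2 and 499 without HLS 5). For the interaction 2 passed, against 4 (normexp), 6 (quantile; slide as random block), 1 (median scaling; no filter), 8 (detected on all arrays), 23479 (spike-ins), 0 (mean or dimmest probe; slide or scan day as a fixed block; animal as a replicate block) and 1 to 13 without 1 array. Between control muscles 8484 passed, against 22797 with spike-ins, 1374 with scan day as a block and 7080 to 8683 without 1 array; between HLS muscles 7824 passed, 6308 to 8169 without 1 array. Of the genes that passed, 40.6% rose in soleus, 28.7% with median and 5.09% with spike-in scaling; in gastrocnemius 36.8% rose and 99.8% with spike-ins; between control muscles 37.8% were higher and 64.5% with median scaling, which moved the median of all genes there by 0.16.

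Changes of sign were these. In soleus, Thbs1 was at 0.057 with the dimmest probe and at 0.056 with slide as a fixed block and within slide 5, Postn at 0.16 with the dimmest probe (the one named A630052E07Rik), and Sparc at 0.14 and 0.16 with slide and scan day as a fixed block and -0.11 to 0.15 without 1 array. In gastrocnemius spike-in scaling gave 0.66 for Ccn2, 0.21 for Tnc, 0.16 for Postn, 0.33 for Spp1 and 0.65 for Sparc. Normexp gave -0.0026 for Ccn1, and the dimmest probe 0.0032 for Tnc. Without 1 array Ccn1 was at -0.10 to 0.24 and Ccn2 at -0.38 to 0.14. In the interaction Thbs1 was at 0.031, 0.23 and 1.07 and Postn at 0.12 and 0.66 (mean and dimmest probe; for Thbs1 last slide as a fixed block), with that block Tnc at 0.27 and Spp1 at 0.059, and Sparc at -0.94 with spike-ins. Between control muscles Ccn2 was at -0.67 with scan day as a block; Thbs1 at -0.059 and -0.81 with the mean and dimmest probe; Tnc at 0.024 (normexp), 0.15 (median), 1.07 (spike-ins), 0.018 and 0.014 (mean and dimmest probe) and -0.078 to 0.043 without 1 array; Sparc at 0.059, 0.97, 0.37 and 0.85 under median, spike-ins, mean and dimmest probe. Slide as a fixed block could not be fitted for the muscle comparisons, since no slide held both muscles. The causes were not tested, except that the probe settings read other probes.

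Ccn1 kept its fall in soleus under every setting run except slide as a fixed block (-0.77, adjusted p = 0.80). With 10 arrays alone the adjusted p was 0.067 for Thbs1, 0.0505 for Tnc and 0.069 for Postn, and 0.029 for Spp1. Under a scan day block the p was 0.067 for Thbs1 and 0.095 for Postn. With number as a replicate block, 1502 and 820 genes passed in soleus and gastrocnemius and no call on the 7 genes changed in that fit of all 20 arrays; the numbers do not pair HLS with control mice, whose deviations correlated at -0.350 to 0.211. A number block in a fit of 10 arrays of 1 muscle, an alternative whose results were seen before the 20-array form was settled on, is counted as chosen after seeing the data. There 463 genes passed in soleus and 450 in gastrocnemius. In soleus 2 of the 7 genes fell, Ccn1 and Spp1 (adjusted p = 0.022), and Thbs1 (0.072), Tnc (0.069) and Postn (0.14) missed the threshold. In gastrocnemius 1 fell, Thbs1 (adjusted p = 0.029), and Tnc missed (0.055). With animal as a replicate block, Ccn2 passed between control muscles (0.75, adjusted p = 0.048). With 5 arrays a group, signal over background limited 1 of the 12 probes, Tnc probe 3.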
